A study of Homo sapiens with 12 samples.

Results

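R1 is a clone of HEK293T, the human embryonic kidney line, that proliferates when methionine is replaced by homocysteine. Its own response to that replacement is described here from the 3 R1 libraries in −Met+Hcy medium against the 3 R1 libraries in +Met medium, which are 6 of the 12 RNA sequencing libraries of the series. The other 6 libraries are those of the parental HEK293T cells in the same media. Cells were collected after 12 h in DMEM without methionine, cystine and glutamine, to which dialyzed serum, vitamin B12, L-glutamine, L-cysteine and either L-methionine (+Met) or homocysteine (−Met+Hcy) had been added. The study's methods list HEK293T cells with an HA tag on the catalytic subunit of PP2A, and the labels do not say whether the sequenced lines carry it. R1 is a single clone obtained by selection, so that differences from HEK293T include whatever else sets this clone apart. The titles of the libraries say R1, and the cell line entered for them is HEK293T. The labels do not say whether the 3 libraries of a group came from separate cultures, and the p-values measure only the spread between these samples. In bulk RNA, less of a transcript per cell and fewer cells that contain it cannot be told apart.

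Homocysteine is methylated to methionine by methionine synthase, which takes its methyl group from folate and uses vitamin B12 as cofactor. Methionine is then joined to ATP to give S-adenosylmethionine (SAM), the methyl donor of the cell, and the product of methyl transfer returns to homocysteine. Shortage of amino acids is sensed by the kinase GCN2, which phosphorylates the initiation factor eIF2 and raises the translation of ATF4, the central transcription factor of the integrated stress response.

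The total count per library was 17244687, 18408528 and 12664158 in R1 cells in +Met and 13718050, 15176196 and 18771349 in −Met+Hcy, for replicates 1, 2 and 3 in that order. R1 −Met+Hcy replicate 3 stood apart from its group. It had counts in 13936 genes, against 16349 to 16898 in the other 5 libraries, and mitochondrially encoded genes took 8.72% of its counts, against 2.73 to 5.24%. Pearson's r of its log2 CPM (counts scaled to a common library size) with the other libraries of its group was 0.894 and 0.891, whereas those correlated at 0.981 with each other. R1 +Met replicate 2 also differed more from the other libraries of its group (r = 0.976 and 0.973) than those did from each other (0.986). All 10 markers of HEK293 cells had counts, with a summed level of 861 to 1210 CPM of the total count in +Met and 731 to 1094 in −Met+Hcy. VIM gave most of that sum, at 586 to 834 CPM in +Met and 416 to 700 CPM in −Met+Hcy. The 6 fibroblast markers summed to 51.5 to 76.3 CPM in +Met and 33 to 92.9 CPM in −Met+Hcy. Those of leukocytes and of hepatocytes summed to at most 4.76 and 0.219 CPM. The 10 markers of MDA-MB-468, the breast cancer line of the same study, summed to 11.4 to 24.4 and 16 to 22.2 CPM, and 3 of them (KRT5, KRT6B and ESRP1) were at 0 in all R1 libraries.

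The deviation of R1 −Met+Hcy replicate 3 followed the GC content of the transcripts. With the expressed genes cut into 10 classes of equal size, in the class of lowest GC content (30.7 to 38.1%), its median log2 difference from the mean of the +Met libraries was 0.96, and in the highest class (61.6 to 75.6%) it was −1.90. In replicates 1 and 2 the medians of all classes lay between −0.09 and 0.12. Each result is therefore given from all 12 libraries and from 11, without this library, and the part of the trend in any single result was not tested.

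**Figure D1:**
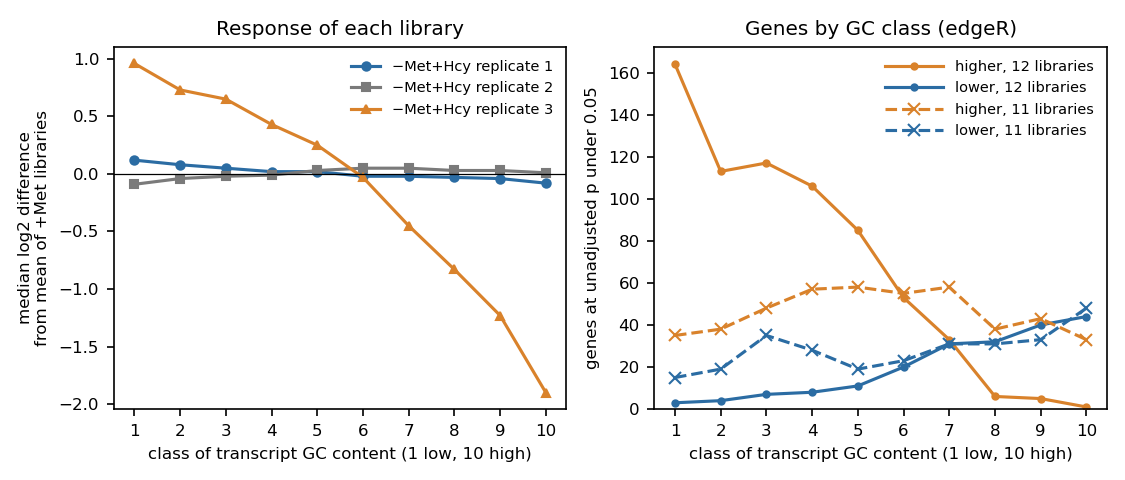
Response of R1 cells by GC content of the transcript, in 10 classes of the expressed genes from low to high. The left panel plots the median log2 difference of each −Met+Hcy library from the mean of the +Met libraries, and the right panel the number of genes at an unadjusted p under 0.05 with all 12 libraries (solid) and with 11 (dashed). Replicate 3 goes from 0.96 to −1.90 across the classes while replicates 1 and 2 stay near 0, and with 12 libraries the genes higher in −Met+Hcy go from 164 in the lowest class to 1 in the highest.

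Few transcripts of R1 cells passed the threshold (adjusted p under 0.05 and an absolute log2 fold change over 1) after 12 h without methionine. With 12 libraries, edgeR's quasi-likelihood test called 1 gene higher, MAT2A, which is 0.00583% of the 17162 genes tested, and 0 genes lower (0%). With 11 libraries it called 3 higher, MAT2A, CHAC1 and SLC6A9, which is 0.0176% of 17069 genes, and 0 lower. DESeq2 called 25 higher (0.146%) and 3 lower (0.0175%) with 12 libraries, and 16 higher (0.0937%) and 5 lower (0.0293%) with 11. The 16 hold ZNF280A more than once, as entries with the same values, and the 25 include KIF5C at a log2 fold change of 28.77. The study used DESeq2, with the same threshold for its volcano plots and the adjusted p alone for its Venn diagrams. It cites its counts for R1 cells to figures of both kinds and reports more genes in each direction. The source of that difference was not tested. At an unadjusted p under 0.05, edgeR gave 974 genes higher (5.68%) and 362 lower (2.11%) with 12 libraries, and 766 higher (4.49%) and 439 lower (2.57%) with 11. Of these, 377 higher genes were shared, 38.7% of those from 12 libraries and 49.2% of those from 11, and 219 lower genes, 60.5% and 49.9%. Among 11727 genes with a mean log2 CPM over 2, the 3 libraries of −Met+Hcy all lay above the 3 of +Met for 613 (5.23%) and all below for 633 (5.4%). Both shares are close to that given by random order of 3 libraries against 3, so a lack of overlap is not by itself a sign of response. The common dispersion was 0.109368 with 12 libraries and 0.034872 with 11.

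The promoters of the 3 called genes and of ASNS are shown because ATF4 with a C/EBP partner is known to act through the sequence TGATGNAA, which stands upstream of several genes of amino acid shortage. The 250 bases before the RefSeq start (GRCh38.p14) are printed 5′ to 3′ on the gene's strand, with copies of TGATGNAA on either strand in capitals. They lie at chr2:85538918-85539167 (plus strand) for MAT2A, chr15:40953221-40953470 (plus) for CHAC1, chr1:44031463-44031712 (minus) for SLC6A9 and chr7:97872409-97872658 (minus) for ASNS.
MAT2A: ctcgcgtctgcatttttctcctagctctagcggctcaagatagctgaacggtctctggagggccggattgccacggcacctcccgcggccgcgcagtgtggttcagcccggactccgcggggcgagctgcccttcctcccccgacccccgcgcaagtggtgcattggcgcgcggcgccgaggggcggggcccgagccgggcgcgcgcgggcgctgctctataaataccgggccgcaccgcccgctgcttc
CHAC1: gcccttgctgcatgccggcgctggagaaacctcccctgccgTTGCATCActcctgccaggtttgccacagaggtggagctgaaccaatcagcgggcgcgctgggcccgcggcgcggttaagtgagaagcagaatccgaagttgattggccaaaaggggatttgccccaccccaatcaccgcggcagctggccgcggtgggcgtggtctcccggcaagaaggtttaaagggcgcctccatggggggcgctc
SLC6A9: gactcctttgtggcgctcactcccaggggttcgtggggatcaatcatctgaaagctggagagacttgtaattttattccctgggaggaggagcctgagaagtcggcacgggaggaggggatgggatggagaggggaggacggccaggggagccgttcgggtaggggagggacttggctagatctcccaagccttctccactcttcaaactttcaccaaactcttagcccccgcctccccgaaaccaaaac
ASNS: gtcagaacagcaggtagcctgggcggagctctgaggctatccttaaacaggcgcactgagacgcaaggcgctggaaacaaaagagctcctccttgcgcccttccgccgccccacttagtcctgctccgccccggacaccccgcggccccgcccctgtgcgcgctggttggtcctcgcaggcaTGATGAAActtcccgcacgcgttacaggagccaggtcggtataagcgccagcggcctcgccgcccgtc

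The CHAC1 promoter held 1 copy, TTGCATCA on the opposite strand, whose first base is at position −209 from the start, and the ASNS promoter held 1, TGATGAAA, at position −68. The windows of MAT2A and SLC6A9 held none of these letters, which says nothing about whether a factor binds elsewhere. The motif was present in 870 of 27305 promoters of this length in the RefSeq table (3.19%) and in 209 of the 12367 tested genes with a promoter there (1.69%). Of the lists described below, it was in 2 of 19 promoters of the integrated stress response (ATF3 and FGF21), 1 of 20 of the amino acid transporters (SLC1A3), 3 of 6 of the genes of asparagine, proline and transamination (ASNS, GOT1 and BCAT1) and 0 of 19 of sterol synthesis. These matches are a description of the letters, and binding was not measured.

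MAT2A (ENSG00000168906, chromosome 2, 85539168 to 85545281, GRCh38) encodes the catalytic subunit of the enzyme that makes SAM from methionine in most tissues outside the liver. Its level was 168, 185 and 157 CPM in the 3 libraries of +Met and 858, 808 and 510 CPM in −Met+Hcy, on counts of 2189 to 3571 and of 8909 to 13715. Every library in −Met+Hcy lay above every library in +Met, with replicate 3 the lowest of its group. The mean went from 170 ± 14.1 to 726 ± 188 CPM (SD, n = 3 each), and the log2 fold change was 2.09 (SE 0.22, edgeR adjusted p = 0.00698). With 11 libraries it was 2.29 (SE 0.15, edgeR adjusted p = 3.9e-05). Leaving out any 1 of the R1 +Met libraries kept the log2 fold change at 2.04 to 2.16 but moved the edgeR adjusted p to between 0.0531 and 0.134, so that the call was lost.

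CHAC1 (ENSG00000128965, chromosome 15, 40952962 to 40956512), a glutathione-degrading enzyme and target of ATF4, was even in +Met at 3.92, 3.88 and 3.94 CPM. In −Met+Hcy it was 22.1 and 24.2 CPM in replicates 1 and 2 and 4.47 CPM in replicate 3, on counts of 338, 410 and 78. The groups did not overlap, and replicate 3 lay just above the +Met libraries. The transcript has a GC content of 61.2%, which places it in the GC class of 57.9 to 61.6%, where the median of replicate 3 was −1.23. The log2 fold change was 2.11 with 12 libraries (SE 0.46, edgeR adjusted p = 0.622). With 11 it was 2.56 (SE 0.18, edgeR adjusted p = 3.9e-05). With 12 libraries DESeq2 called it (adjusted p = 0.00649). With 12 libraries edgeR called it only once the trend with GC content and length was removed (2.39, adjusted p = 0.00101).

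SLC6A9 (ENSG00000196517, chromosome 1, 43991500 to 44031467), the glycine transporter GLYT1, was 6.67, 6.16 and 6.52 CPM in +Met against 13.8, 13.9 and 8.65 CPM in −Met+Hcy. All 3 −Met+Hcy libraries were higher, with replicate 3 again closest to +Met. Its log2 fold change was 0.91 with 12 libraries (edgeR adjusted p = 0.622) and 1.10 with 11 (SE 0.13, edgeR adjusted p = 0.0107). With 12 libraries edgeR called it once the trend with GC content and length was removed (1.38, adjusted p = 0.0399). With 11 libraries the call was lost on leaving out a further R1 library, except +Met replicate 2.

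**Figure D2:**
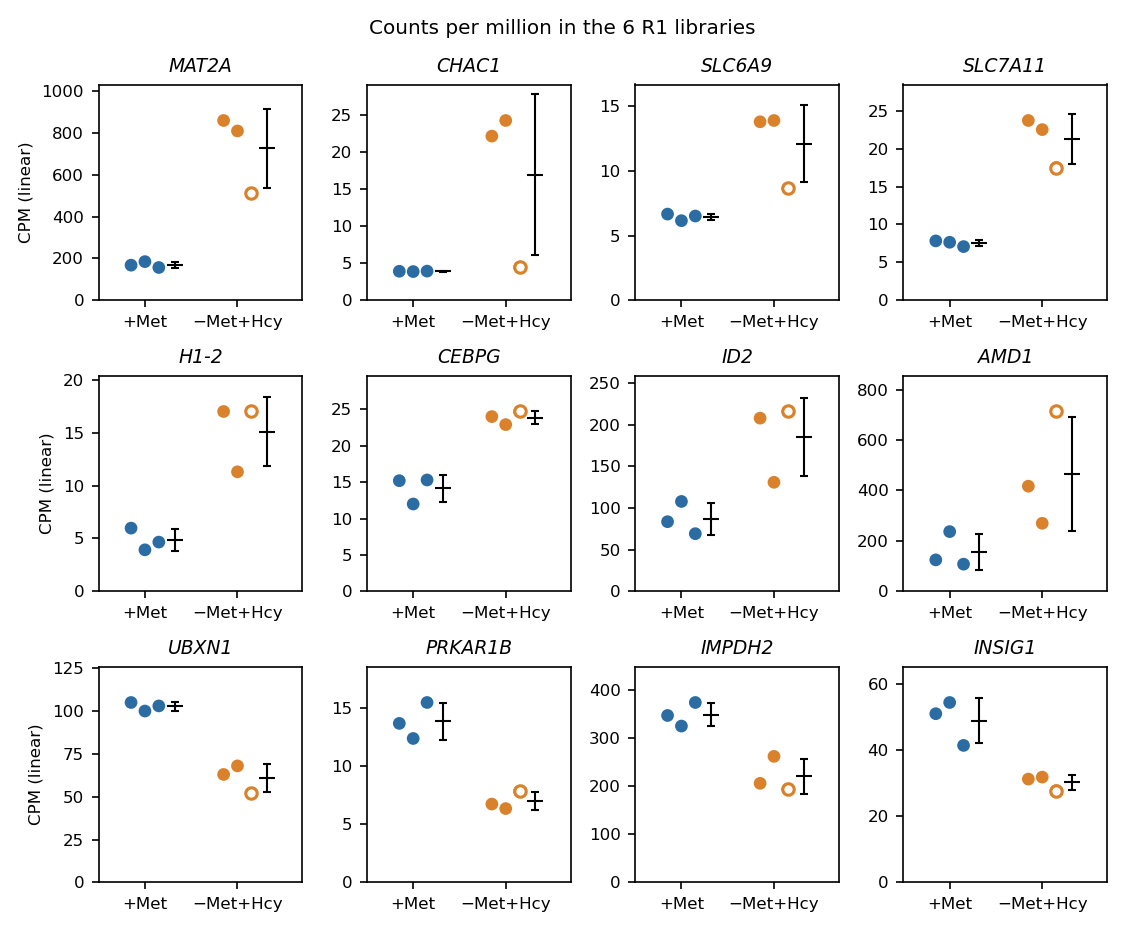
TMM-scaled CPM on linear axes in the 3 +Met (blue) and 3 −Met+Hcy (orange) R1 libraries for 12 genes described in the text, with the mean and SD of each group beside the points; the open circle is −Met+Hcy replicate 3. MAT2A goes from 157 to 185 CPM in +Met to 510 to 858 CPM in −Met+Hcy, and for CHAC1 the open circle at 4.47 CPM lies far below the other −Met+Hcy libraries.

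DESeq2 called further genes with 12 libraries that edgeR placed at an adjusted p of 0.58 or 0.622. SLC7A11, H1-2, HSF2BP, SNAI2, NFIL3, ID2 and AMD1, as well as MAT2A, CHAC1 and CEBPG, were also picked by a rule of no overlap. For these genes the lack of overlap is therefore part of the choice. SLC7A11, the cystine-importing subunit of the cystine/glutamate exchanger, was 7.84, 7.66 and 7.09 CPM in +Met against 23.7, 22.5 and 17.5 CPM in −Met+Hcy. Replicate 3 was only a little lower than the other −Met+Hcy libraries. The log2 fold change was 1.49 with 12 libraries (DESeq2 adjusted p = 0.000426) and 1.62 with 11 (edgeR adjusted p = 0.0799, DESeq2 adjusted p = 2.07e-05). H1-2, a linker histone, was 5.98, 3.93 and 4.66 CPM in +Met against 17, 11.3 and 17 CPM in −Met+Hcy, where replicate 3 lay with its group. Its log2 fold change was 1.63 with 12 libraries (DESeq2 adjusted p = 0.000314) and 1.54 with 11 (edgeR adjusted p = 0.152, DESeq2 adjusted p = 0.000662). HSF2BP, which binds heat shock factor 2 and takes part in meiotic recombination, was 2.44, 2.43 and 2.86 CPM against 7.27, 5.89 and 8.19 CPM. Its log2 fold change was 1.35 in 11 libraries (DESeq2 adjusted p = 0.00093).

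For other genes that DESeq2 called, replicate 3 set much of the size. SNAI2, a transcriptional repressor of the Snail family, was 9.05, 11.2 and 10.8 CPM in +Met against 22, 19.3 and 70.4 CPM in −Met+Hcy. Replicates 1 and 2 were already above +Met and replicate 3 was far above both. Its log2 fold change was 1.85 with 12 libraries (DESeq2 adjusted p = 0.00823) and 1.00 with 11 (edgeR adjusted p = 0.0643). NAT2, an arylamine N-acetyltransferase, showed the same layout with 1.54, 1.92 and 1.86 against 4.06, 3.95 and 14.2 CPM, and log2 fold changes of 2.06 and 1.18. The values of NFIL3, a basic leucine zipper repressor, were 13.8, 17.3 and 13 CPM against 25.9, 24.6 and 42.6 CPM. Its groups did not overlap, which is part of its choice, and the log2 fold change was 1.08 with 12 libraries and 0.78 with 11. ATF7IP2 (log2 fold changes of 1.63 and 1.19) and TRAF3IP3 (1.33 and 1.00) likewise had all 3 −Met+Hcy libraries above +Met.

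No gene passed the edgeR threshold in the lower direction. The genes with the smallest p among those whose groups did not overlap were UBXN1, a cofactor of the segregase p97, at 105, 100 and 103 CPM in +Met against 63, 68 and 51.9 CPM in −Met+Hcy, and PRKAR1B, a regulatory subunit of protein kinase A, at 13.7, 12.4 and 15.5 against 6.75, 6.36 and 7.85 CPM. Both were chosen for this lack of overlap, so that all 3 −Met+Hcy libraries lying below +Met is part of the choice. UBXN1 had a log2 fold change of −0.75 (SE 0.16) with 12 libraries and −0.65 with 11, with edgeR adjusted p of 0.622 and 0.366. PRKAR1B had −0.99 and −1.08, with edgeR adjusted p of 0.622 and 0.24, and DESeq2 called it lower with 11 libraries (adjusted p = 0.00475). IMPDH2, the enzyme that commits IMP to guanine nucleotides, was 347, 325 and 374 CPM against 206, 262 and 194 CPM, a log2 fold change of −0.66 with 12 libraries and −0.58 with 11. HOXD9 was 18.3, 20.3 and 20.7 CPM against 10.6, 11 and 3.61 CPM, and its log2 fold change went from −1.24 to −0.87 when replicate 3, the lowest, was left out. Of the other genes chosen in the same way, TLCD1, UTP18, FNDC8 and L3MBTL1 had log2 fold changes of −0.74, −0.48, −0.99 and −0.73, and INSIG1 is given below.

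Among the 12 measured genes of the methionine cycle, MAT2A was the only one called. The enzymes that carry homocysteine to methionine and back did not separate by medium. MTR, methionine synthase, was 165, 90.6 and 176 CPM in +Met against 101, 146 and 107 CPM in −Met+Hcy (log2 fold change −0.29), and MTRR, its reductase, was 32.5, 38.6 and 34.2 against 39.4, 35.3 and 43.6 CPM (0.17). Within +Met, replicate 2 had the lowest MTR and the highest AHCY, the hydrolase of S-adenosylhomocysteine, at 386 CPM against 292 and 243 CPM; in −Met+Hcy AHCY was 316, 242 and 129 CPM, with a log2 fold change of −0.42 in 12 libraries and −0.14 in 11. METTL16, the m6A methyltransferase known to act on MAT2A RNA, was 48, 44.7 and 53.4 CPM against 60.7, 60.5 and 76.1 CPM. All 3 −Met+Hcy libraries were higher, with a log2 fold change of 0.43 (edgeR unadjusted p = 0.0221, adjusted p = 0.622) and 0.32 without replicate 3 (unadjusted p = 0.0364). MAT1A, the liver form of the SAM-making enzyme, had 0, 0 and 0 counts in +Met against 3, 3 and 0 in −Met+Hcy, at or under the floor of 3 counts per library, and is given no fold. The median log2 fold change of the 12 genes was −0.07 with 12 libraries and 0.01 with 11, against −0.02 and 0.00 over all genes tested.

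Vitamin B12 handling, transsulfuration and polyamine synthesis border the methionine cycle. Of 12 genes of cobalamin handling, 1 was higher at an unadjusted p under 0.05 with 12 libraries and 2 with 11, both in the higher direction, against 5.68% and 4.49% of all genes tested, and none was called. These were MMAA, a chaperone of methylmalonyl-CoA mutase, at 4.34, 6.78 and 5.09 against 9.7, 8.25 and 11.9 CPM (log2 fold change 0.88, and 0.73 in 11 libraries), and TCN2, the plasma carrier transcobalamin, at 3.71, 3.11 and 3.22 against 4.46, 6.84 and 6.13 CPM (0.79 and 0.75). Neither gene overlapped between the media. CD320, the receptor of transcobalamin, was 53.7, 60 and 48.2 CPM against 51.5, 45.1 and 12.3 CPM, so that its log2 fold change of −0.57 went to −0.16 without replicate 3. In transsulfuration and glutathione turnover, CTH, which releases cysteine from cystathionine, was 17.6, 18.5 and 19.5 against 24.5, 23.6 and 21.8 CPM (0.33 and 0.38). GCLM, the modifier subunit of glutamate-cysteine ligase, lay the other way at 32, 32.5 and 40 against 22.8, 27.9 and 21.7 CPM (−0.53 and −0.46).

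AMD1, which decarboxylates SAM for polyamine synthesis, was 125, 237 and 108 CPM in +Met against 417, 270 and 713 CPM in −Met+Hcy. The groups did not overlap, which is part of its choice, but +Met replicate 2 reached 237 CPM, near the lowest −Met+Hcy library. The log2 fold change was 1.57 with 12 libraries (edgeR adjusted p = 0.622, DESeq2 adjusted p = 0.0209) and 1.13 with 11 (edgeR adjusted p = 0.401). Without +Met replicate 2 as well, the edgeR adjusted p of AMD1 was 0.0418 and that of SNAI2 0.049, with log2 fold changes of 1.56 and 1.06, and both were called. The list of 16 genes of methionine salvage and polyamines had 12 members with a negative log2 fold change and a median of −0.24 (−0.18 with 11 libraries), so that AMD1 stood against most of its list. In serine synthesis and folate one-carbon metabolism 8 of 16 genes had a positive log2 fold change and the median was 0.01. MTHFD1, which interconverts folate one-carbon units, was 365, 319 and 379 against 267, 302 and 205 CPM (−0.46 and −0.32).

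Of 24 factors and effectors of the integrated stress response, none was called with 12 or 11 libraries, and 18 had a positive log2 fold change with 12 libraries and 20 with 11. At an unadjusted p under 0.05, 6 were higher with 12 libraries and 10 with 11, against 5.68% and 4.49% of all genes tested, and 0 were lower. The median log2 fold change was 0.23 and 0.39. The medians by library were 0.27, 0.31 and −0.21 for −Met+Hcy replicates 1, 2 and 3, against 0.03, 0.01 and −0.26 over all genes tested. ATF4 itself was 761, 877 and 725 CPM in +Met against 1037, 972 and 1160 CPM in −Met+Hcy, every library above +Met, with a log2 fold change of 0.42 (edgeR unadjusted p = 0.0298, adjusted p = 0.622) and 0.35 with 11 libraries. CEBPG, a C/EBP partner of ATF4, was 15.2, 12 and 15.3 CPM against 24, 22.9 and 24.7 CPM. It was as high in replicate 3 as in the others, with a log2 fold change of 0.76 (SE 0.17; edgeR adjusted p = 0.622, DESeq2 adjusted p = 0.0109) and 0.73 with 11 libraries. DDIT3, the transcription factor CHOP, was 4.5, 8.23 and 7.52 CPM against 14, 10.1 and 9.62 CPM, also without overlap (0.74 and 0.84). NUPR1, a small stress-induced chromatin protein, had 0, 0 and 1 counts in +Met against 8, 4 and 18 in −Met+Hcy, and is given no fold.

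Several effectors of the same response were higher in replicates 1 and 2 but low in replicate 3. CEBPB, a C/EBP factor, was 10.1, 10.5 and 6.95 CPM in +Met against 15.9, 19 and 2.81 CPM in −Met+Hcy, so that its log2 fold change was 0.45 with 12 libraries and 0.92 with 11 (edgeR adjusted p = 0.24). DDIT4, an inhibitor of mTORC1, was 73.8, 82 and 56.2 CPM against 116, 92.7 and 5.67 CPM (0.01 and 0.56). SESN2, a leucine sensor upstream of mTORC1, was 22, 19.2 and 19.6 against 23.8, 33.4 and 14.5 CPM (0.24 and 0.50). JDP2 and CCPG1 had the opposite layout, with JDP2 at 6.23, 9.43 and 19 CPM and CCPG1 at 100, 79.5 and 221 CPM in −Met+Hcy. Some members were not higher in both replicates 1 and 2. Their log2 differences from the +Met mean in these were −0.30 and −0.03 for ATF5, −0.45 and −0.14 for GADD45A, and −0.32 and −0.12 for VLDLR. For TRIB3 they were −0.03 and 0.17, and for EIF4EBP1 0.36 and −0.12. Of 22 genes of the ER unfolded protein response, 0 reached an unadjusted p under 0.05 by edgeR with 12 libraries or with 11, 0 were called by DESeq2 with 12, and the median was −0.07 and −0.05.

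Among amino acid enzymes and transporters, a few members differed between the media. ASNS, asparagine synthetase, was 115, 163 and 110 CPM in +Met against 228, 166 and 305 CPM in −Met+Hcy, with replicate 2 barely above the highest +Met library. Its log2 fold change was 0.85 (edgeR unadjusted p = 0.00558, adjusted p = 0.622) and 0.60 with 11 libraries. BCAT1, the cytosolic branched-chain transaminase, was 24.3, 26.8 and 23.7 against 31.8, 30.6 and 51.8 CPM (0.61 and 0.32). PYCR1, the proline-making reductase of mitochondria, was 105, 98.9 and 99.8 CPM against 92.5, 99.8 and 9.91 CPM, a low value in replicate 3 only. Of 25 amino acid transporters, 1 was called (SLC6A9, with 11 libraries), and 3 were higher and 2 lower at an unadjusted p under 0.05 with 12 libraries, against 5.68% and 2.11% of all genes tested. SLC7A2, a cationic amino acid transporter, was 21.2, 18.2 and 20.3 against 12.1, 15.8 and 11.9 CPM (−0.58 and −0.51), and SLC1A3, a glutamate transporter, was 19.9, 25.6 and 16.6 against 15.4, 12.8 and 16.2 CPM (−0.49 and −0.56). The list's median was −0.19 with 12 libraries and 0.05 with 11. SLC3A2, the heavy chain that SLC7A11 pairs with, was 200, 175 and 198 CPM against 231, 245 and 57.7 CPM, higher in replicates 1 and 2 and low in replicate 3. Of 20 cytosolic aminoacyl-tRNA synthetases, 1 was higher and 1 lower at that p with 12 libraries, and the median was 0.03.

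**Figure D3:**
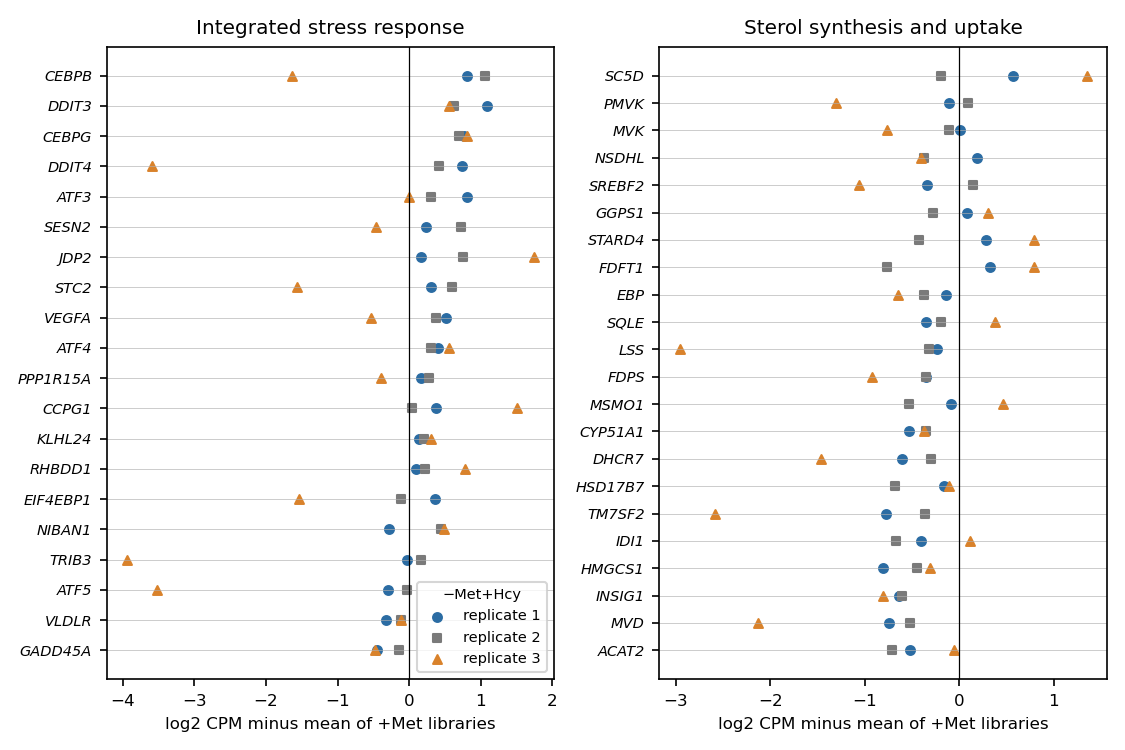
Log2 CPM of each −Met+Hcy library minus the mean of the 3 +Met libraries, for most members of the integrated stress response (left) and of sterol synthesis and uptake (right) with a mean of at least 1 CPM, ordered by log2 fold change in 11 libraries. CEBPG has its 3 libraries together, DDIT4 and CEBPB have replicate 3 far to the left, and INSIG1 and DHCR7 lie left of 0 in all 3 libraries.

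Transcripts of sterol synthesis and uptake had lower values in −Met+Hcy in most members, and none of them was called. Of 26 genes, 21 had a negative log2 fold change with 12 libraries and 24 with 11, and the median was −0.38 and −0.37. The median by library was −0.33, −0.36 and −0.39 for −Met+Hcy replicates 1, 2 and 3, so that replicate 3 did not stand apart here, against 0.03, 0.01 and −0.26 over all genes tested. At an unadjusted p under 0.05, 9 members were lower with 12 libraries and 11 with 11, against 2.11% and 2.57% of all genes tested, and 0 were higher. Of 25 members with a mean log2 CPM over 2, 10 had all −Met+Hcy libraries below all +Met libraries, where 5.4% of genes did. INSIG1, which retains the SREBP activator in the ER and is itself an SREBP target, was 51.1, 54.5 and 41.5 CPM in +Met against 31.3, 31.9 and 27.8 CPM in −Met+Hcy. INSIG1 was among the genes chosen for a lack of overlap, so that the separation of its media is part of the choice. Its log2 fold change was −0.69 (SE 0.18, edgeR unadjusted p = 0.00252, adjusted p = 0.622) and −0.64 in 11 libraries (adjusted p = 0.4).

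Some enzymes along the pathway, described here because their media did not overlap, had lower values in −Met+Hcy. HMGCS1, which makes HMG-CoA, was 185, 164 and 203 CPM in +Met against 105, 134 and 148 CPM in −Met+Hcy (log2 fold change −0.51 with 12 libraries and −0.62 with 11). DHCR7, the last enzyme of one branch to cholesterol, was 205, 168 and 191 CPM against 122, 152 and 68 CPM (−0.72 and −0.45). The media overlapped for neither enzyme, and replicate 3 was the lowest library for DHCR7 but the highest of its group for HMGCS1. MVD, TM7SF2, FDPS and CYP51A1 also had no overlap, the last 3 with log2 fold changes of −0.98, −0.52 and −0.42 with 12 libraries. Other enzymes of the pathway did not share this layout. SC5D, a sterol desaturase, had a log2 fold change of 0.64 with 12 libraries and 0.16 with 11, and its media overlapped. FDFT1, squalene synthase, was at 0.14 and −0.24, and GGPS1, which makes geranylgeranyl diphosphate, at 0.03 and −0.11. SQLE, squalene epoxidase, was at −0.02 and −0.27, and the mevalonate kinase MVK at −0.25 and −0.05.

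Fatty acid synthesis and desaturation had a similar layout. Of 17 genes, 14 had a negative log2 fold change with 12 libraries and 15 with 11, the median was −0.34 and −0.28, and 4 and 5 members were lower at an unadjusted p under 0.05, against 2.11% and 2.57% of all genes tested. FADS1, the delta-5 desaturase, was 55, 53.9 and 57.2 CPM in +Met against 42.2, 39.9 and 37.6 CPM in −Met+Hcy. Its libraries were tightly grouped in each medium, with a log2 fold change of −0.47 (edgeR unadjusted p = 0.0145, adjusted p = 0.622) and −0.43 in 11 libraries. SCD5, a stearoyl-CoA desaturase, was 22.2, 26.7 and 19.3 against 12, 14.7 and 8.88 CPM (−0.94 and −0.77), and ELOVL1, an elongase of very long chains, was 80.3, 88.6 and 70.1 against 62.1, 55.9 and 40.1 CPM (−0.60 and −0.44). Synthesis of phosphatidylcholine and other small-molecule methyl transfer, 18 genes, had a median of −0.39 with 12 libraries and −0.18 with 11. Its median was −0.15 in −Met+Hcy replicate 1 and −0.21 in replicate 2, and replicate 3 was far lower. CHKA, choline kinase, was 23.1, 17.6 and 22 against 12.2, 18 and 7.9 CPM, and PCYT2, of the ethanolamine branch, was 43, 44.2 and 39 against 32.5, 31.9 and 9.11 CPM.

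Proteasome subunits had slightly lower values in −Met+Hcy. With 12 libraries 26 of 31 subunits had a negative log2 fold change and with 11 all 31 did, the median was −0.27 and −0.28, and the medians by library were −0.17, −0.39 and −0.19. None was called, and 7 and 6 were lower at an unadjusted p under 0.05, against 2.11% and 2.57% of all genes tested. For 7 of them the −Met+Hcy libraries all lay below +Met, where 5.4% of genes with a mean log2 CPM over 2 did. PSMC3, an ATPase of the regulatory particle, was 215, 202 and 227 CPM in +Met against 155, 175 and 118 CPM in −Met+Hcy (log2 fold change −0.53 and −0.38), and PSMD3, of its lid, was 332, 331 and 344 against 244, 263 and 123 CPM (−0.68 and −0.40). The 2 media were apart for both subunits, and replicate 3 was the lowest library. Cytosolic heat shock chaperones had a median of −0.03 with 12 libraries and −0.30 with 11, where 19 of 21 had a negative log2 fold change, since replicate 3 was at a median of 0.33. CHORDC1, a partner of HSP90, was 53.4, 68.3 and 57.7 CPM in +Met against 40.3, 40.4 and 111 CPM in −Met+Hcy, and its log2 fold change went from 0.10 to −0.57 (edgeR unadjusted p = 0.00178, adjusted p = 0.389) without replicate 3. FKBP4, another HSP90 cochaperone, was lower in all 3 libraries, at 361, 329 and 354 against 243, 290 and 146 CPM.

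For glycolysis and for mitochondrially encoded subunits, replicate 3 set most of the size. Of 22 genes of glycolysis and glucose uptake, 20 had a negative log2 fold change with 12 libraries and 21 with 11, and the medians by library were −0.20, −0.14 and −1.06. PFKP, a phosphofructokinase, was 125, 89.7 and 123 CPM in +Met against 65.5, 92.6 and 45.5 CPM in −Met+Hcy, with an overlap between replicates 2 of both media (log2 fold change −0.73 and −0.51). ALDOA, aldolase, was 1472, 1288 and 1369 against 1017, 1228 and 672 CPM (−0.50 and −0.29). All 13 mitochondrially encoded subunits had a positive log2 fold change with 12 libraries and 10 with 11, with medians by library of 0.15, 0.42 and 1.46, and 6 and 1 were higher at an unadjusted p under 0.05, against 5.68% and 4.49% of all genes tested. The 1 that remained was MT-ND2, a subunit of complex I, at 2190, 1470 and 2534 CPM against 3220, 3910 and 6498 CPM, a log2 fold change of 1.14 with 12 libraries and 0.79 with 11 (edgeR unadjusted p = 0.0112, adjusted p = 0.559).

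Ribosomal protein genes differed between the fits in sign. Of 79, 47 had a positive log2 fold change with 12 libraries and 22 with 11, and the median was 0.09 and −0.07, with medians by library of 0.17, −0.25 and 0.53. RPL36A stood at 386, 460 and 356 CPM in +Met. In −Met+Hcy it was 421 and 357 CPM in replicates 1 and 2, and 3418 CPM in replicate 3. RPL38 had the same layout, with 1492 CPM in replicate 3 and 406 and 278 CPM in the other −Met+Hcy libraries. Their log2 fold changes of 1.80 and 1.07 with 12 libraries were −0.04 and −0.01 without replicate 3. Both belong to large families with many processed copies in the genome, whose reads the counting may split. Whether that bears on these values was not tested. Genes of DNA replication, 35 measured, had a median of −0.05 with 12 libraries and −0.10 with 11, and those of G2 and mitosis, 36 measured, 0.09 and −0.10; CDC20, the activator of the anaphase-promoting complex, was 291, 301 and 282 against 231, 238 and 128 CPM (−0.55 and −0.31).

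**Figure D4:**
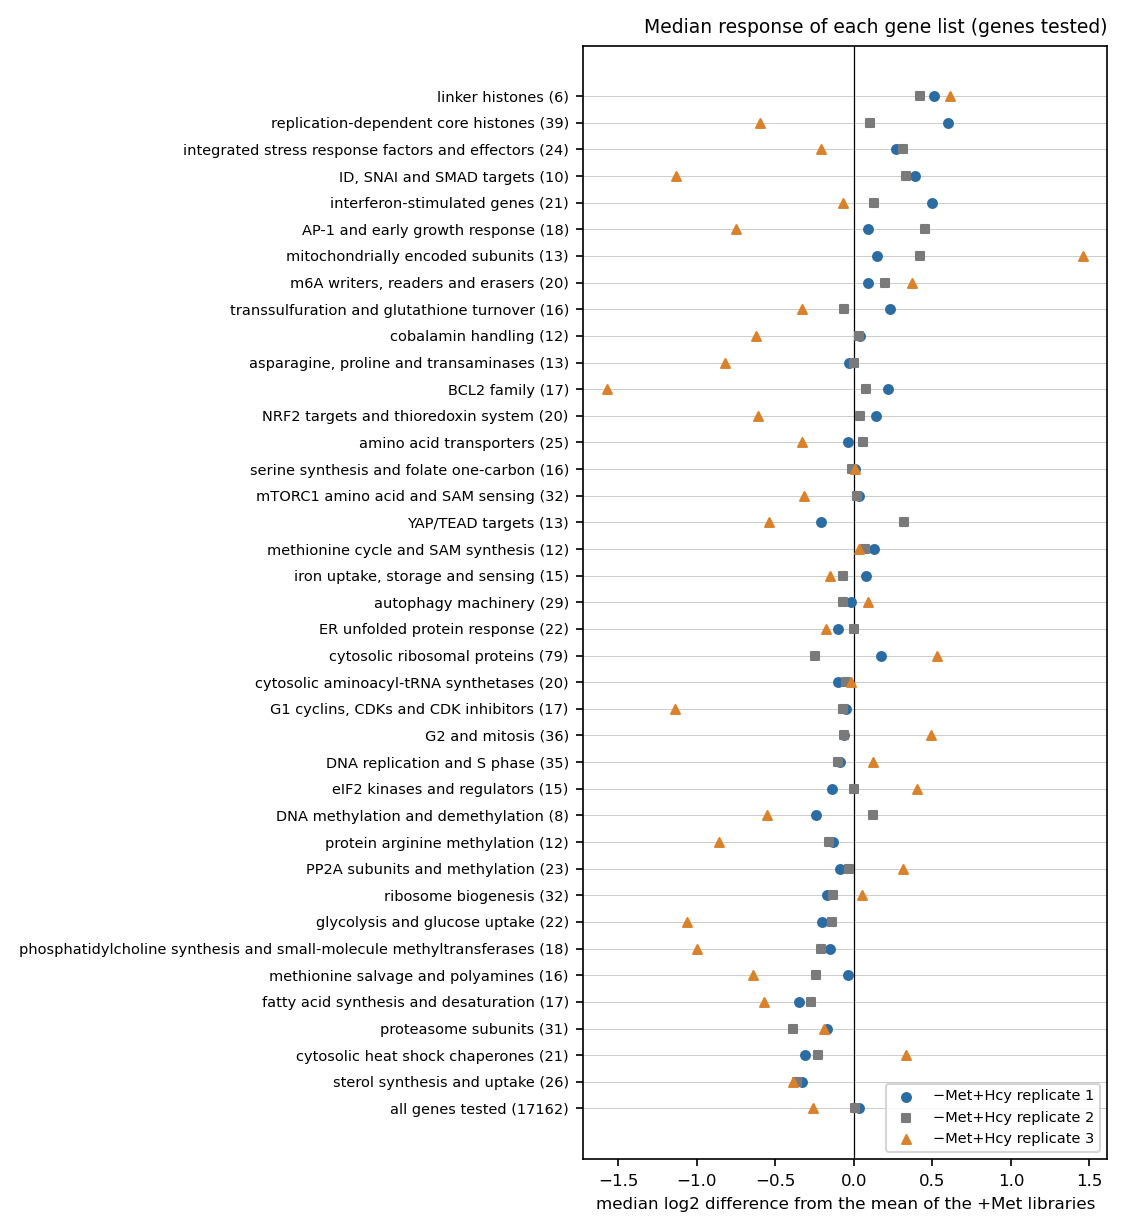
Median over the tested members of each gene list shown (number in brackets) of the log2 difference of each −Met+Hcy library from the mean of the +Met libraries, ordered by the median in 11 libraries, with all genes tested at the bottom. The 3 libraries lie together for sterol synthesis (−0.33, −0.36 and −0.39), and replicate 3 lies far from the others for mitochondrially encoded subunits (1.46) and glycolysis (−1.06).

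Writers, readers and erasers of m6A, the methyl mark on mRNA that SAM supplies, were higher in several members. Of 20 genes 14 had a positive log2 fold change with 12 libraries and with 11, and none was called. At an unadjusted p under 0.05, 6 and 5 were higher, against 5.68% and 4.49% of all genes tested, and 8 had all −Met+Hcy libraries above +Met, where 5.23% of genes with a mean log2 CPM over 2 did. RBM15, an adaptor of the m6A writer complex, was 63, 52 and 63.7 CPM in +Met against 91.3, 114 and 70.7 CPM in −Met+Hcy (log2 fold change 0.63, and 0.78 in 11 libraries with edgeR adjusted p = 0.366). WTAP, a scaffold of the same complex, was 96.4, 136 and 83.3 against 169, 146 and 279 CPM (0.91 and 0.58). YTHDF1, a reader, was 58.6, 53 and 56.6 against 66.9, 79.5 and 71.2 CPM (0.37 and 0.38). For all of these the −Met+Hcy libraries were higher, in RBM15 least in replicate 3 and in WTAP most in replicate 3. The median of the list was 0.26 with 12 libraries, 0.11 with 11 and 0.08 with 12 libraries once the trend with GC content and length was removed, and the median GC content of its transcripts was 44.8%, against 49% over all genes tested.

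Genes of protein arginine methylation had lower values in most members. Of 12 genes, 9 had a negative log2 fold change with 12 libraries and 8 with 11, with a median of −0.23 and −0.15. The medians by library were −0.13, −0.16 and −0.86, so that replicate 3 set much of the size with 12 libraries. PRMT5, which makes symmetric dimethylarginine, was 300, 308 and 286 CPM in +Met against 226, 225 and 168 CPM in −Met+Hcy. The media were clearly apart, with a log2 fold change of −0.53 (edgeR unadjusted p = 0.00861, adjusted p = 0.622) and −0.40 in 11 libraries. PRMT1, the main asymmetric methyltransferase, was 253, 335 and 217 against 235, 175 and 113 CPM, with an overlap (−0.62 and −0.39). Of 8 genes of DNA methylation and demethylation, 0 reached an unadjusted p under 0.05 by edgeR with 12 libraries or with 11, and DESeq2 called 0 with 12. Their median was −0.29 with 12 libraries and −0.12 with 11, and the medians by library differed in sign, at −0.24, 0.12 and −0.55.

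The series addresses methylation of the phosphatase PP2A, so its subunits and the enzymes of its methylation were listed. Of 23 genes, edgeR called 0 with 12 or 11 libraries and DESeq2 called 0 with 12. At an unadjusted p under 0.05 there were 0 with 12 libraries and 1 with 11. That gene was PPME1, the PP2A methylesterase, at 60.1, 46.8 and 59.3 CPM in +Met against 36.6, 48.3 and 51.1 CPM in −Met+Hcy. Replicates 2 and 3 of −Met+Hcy lay within the range of +Met, and the log2 fold change was −0.29 with 12 libraries (edgeR unadjusted p = 0.146) and −0.38 with 11 (unadjusted p = 0.0406, adjusted p = 0.683). TIPRL, a regulator of PP2A-type phosphatases, had a log2 fold change of 0.66 with 12 libraries and −0.14 with 11. Of 32 genes of amino acid and SAM sensing by mTORC1, 2 were higher at that p with 12 libraries and 4 with 11, where 5.68% and 4.49% of all genes tested were, and 0 were lower. The count with 12 libraries is near that share. MIOS, a subunit of GATOR2, was 41.1, 42.1 and 43.2 against 58.1, 51.2 and 103 CPM (0.75 and 0.37), and RRAGC, a Rag GTPase, was 30.7, 26.7 and 29.3 against 36.1, 35.5 and 54.1 CPM (0.54 and 0.31). All 3 −Met+Hcy libraries were above +Met for both genes.

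Of 6 measured linker histones, 3 had a positive log2 fold change with 12 libraries and 4 with 11, and the median was 0.36 and 0.46. Replication-dependent core histones had a median of 0.25 with 12 libraries and 0.44 with 11 over 39 genes, of which only 3 had a mean log2 CPM over 2. H2AC6 was 2.06, 3.52 and 1.5 against 6.68, 3.12 and 6.36 CPM (1.18 and 1.02), with an overlap. Among 10 measured ID, SNAI and SMAD target genes, 5 had a positive log2 fold change with 12 libraries and 10 with 11. ID2, an inhibitor of helix-loop-helix factors, was 83.7, 108 and 69.3 CPM in +Met against 208, 131 and 216 CPM in −Met+Hcy. Its groups did not overlap, which is part of its choice. The log2 fold change was 1.09 (edgeR adjusted p = 0.622, DESeq2 adjusted p = 0.0198) and 0.96 in 11 libraries. ID1 and ID3 were 2.29 CPM each in replicate 3, against 26.7 and 23.9 CPM and 30.5 and 18.9 CPM in replicates 1 and 2. BAMBI, a decoy receptor of the TGF-beta family, was 29.6, 31.5 and 27.9 against 34.5, 37.9 and 40.7 CPM (0.34 and 0.29).

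OSMR, EIF3CL and IGFBP3 are genes that the study names for R1 cells, and all were near the lower end of detection. OSMR, the oncostatin M receptor subunit, had 6, 5 and 8 counts in +Met against 15, 24 and 43 in −Met+Hcy. Its media did not overlap, with a log2 fold change of 2.08 (SE 0.71, edgeR unadjusted p = 0.0125, adjusted p = 0.622) and 1.66 in 11 libraries. EIF3CL had 29, 0 and 64 counts in +Met against none in any −Met+Hcy library, so the media overlapped at 0. It is a near-identical copy of EIF3C, between which the estimated counts can be split, and its value is uncertain. IGFBP3, a carrier of insulin-like growth factors, had 12, 9 and 4 counts against 1, 3 and 0, at or under the floor in −Met+Hcy. These genes were selected by the study on these libraries, so their direction is not independent evidence. Some entries had counts in replicate 3 and 0 in all other R1 libraries, namely those under the symbols AGK (265), ARL2-SNX15 (250) and PBX2 (152).

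The medium response of R1 was set against that of HEK293T cells, measured in their own 6 libraries, by the difference of the 2 responses in the same edgeR fit. With 11 libraries, the difference was at an adjusted p under 0.05 for 287 of 17069 genes (1.68%), and with 12 for 10 of 17162 (0.0583%). Among the genes named for their R1 values there were 8 and 1. For CHAC1 the log2 fold change was 2.56 (SE 0.18) in R1 and 4.68 (SE 0.17) in HEK293T cells, a difference of −2.12 (SE 0.24, edgeR adjusted p = 0.00208). SLC6A9 (1.10 and 1.99) and CEBPG (0.73 and 2.00) were likewise higher in both lines with the smaller size in R1, at adjusted p of 0.0293 and 0.0152. PFKP was −0.51 in R1 and −1.94 in HEK293T (adjusted p = 0.0251). For MAT2A the order was the opposite, with 2.29 in R1 and 1.58 in HEK293T cells. Its difference of 0.71 did not pass (edgeR adjusted p = 0.0948), and with 12 libraries it was 0.51 (SE 0.29, adjusted p = 0.584). For all 8 genes the response with 11 libraries had the same sign in both lines.

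**Figure D5:**
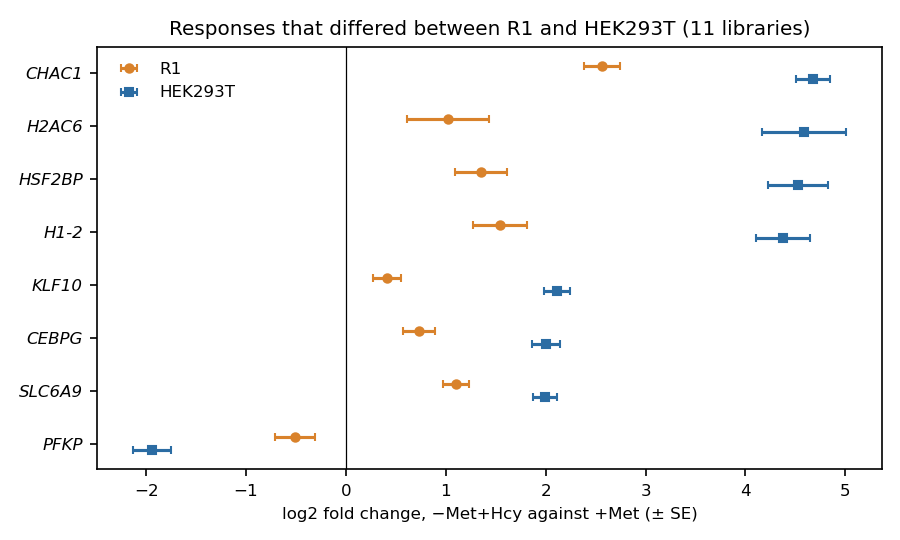
Log2 fold change (−Met+Hcy against +Met, ± SE from the edgeR fit of 11 libraries) in R1 (circles) and HEK293T cells (squares) for the named genes whose responses differed between the lines at an adjusted p under 0.05. For each gene the R1 value lies closer to 0, as for CHAC1 (2.56 and 4.68) and PFKP (−0.51 and −1.94).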

How the data were processed

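The authors sequenced RNA from 12 libraries, 3 for each of R1 and HEK293T cells in each medium, collected at 12 h. The reads were quantified by the authors with kallisto 0.48.0 against GRCh38. The deposited unit is the estimated count per Ensembl gene, a sum over its transcripts turned into a whole number, with no scaling for depth. The annotation release, strand setting and any batch are not given in the sources used here, so antisense partners cannot be told apart. Totals of the R1 libraries were 12664158 to 18771349 counts, and floors cover counting error only. The medium of each library was taken from its label.

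Of 23500 genes listed, 6338 with a summed count under 10 were excluded, and 17162 were tested (17069 without R1 −Met+Hcy replicate 3). Counts were scaled by TMM and tested with edgeR 4.0.16 in R 4.3.3 (quasi-likelihood, 1 mean per group, 8 residual degrees of freedom, or 7 with 11 libraries), with Benjamini-Hochberg adjustment over all genes tested. A gene was called at an adjusted p under 0.05 and an absolute log2 fold change over 1. CPM are TMM-scaled unless given per total count, log2 CPM used a prior count of 2, and log2 fold changes are the model's. GC content was assigned from GENCODE to 15857 genes (92.4%). The floor was 3 counts per library.

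The members, the 40 gene lists (858 entries) and the tests were chosen with earlier results of these data known, so the lists are described by counts and medians. Genes were named if called in either fit, if among the 10 smallest p in each direction without overlap of the media (mean of at least 5 CPM), if called by DESeq2 at that level (up to 12 in each direction), if at an unadjusted p under 0.05 in both fits within a list (otherwise the largest changes), if named by the study for R1, or if present in replicate 3 alone; the values of some genes that met the rule are not reported here, while counts and medians of lists include them. CPM are compared within a gene only. The alternatives were DESeq2 1.42.0, either tool on the R1 libraries only, RLE scaling, other filters, the replicate number as a block, robust spread, removal of each library's loess trend with GC content and length (span 0.3) through offsets, the adjusted p alone, 1 entry per set of identical copies, and each library left out in turn. The counts at an unadjusted p without replicate 3 under DESeq2, the block and the trend removal, and the difference between the lines without that library, were added after seeing the data. The procedure was tested on simulated data for the R1 comparison. All libraries were drawn with the spread of the 11-library fit (common dispersion 0.034872) and without the GC trend of R1 −Met+Hcy replicate 3. The real fit of 12 libraries had a common dispersion of 0.109368, so the shares below do not give its power. With 12 libraries (16853 genes) edgeR called 97% of genes changed by 1.5 and 100% of those changed by 2.5 on the log2 scale, with 7 unchanged genes called, and with 11 (16804 genes) 95% and 100%, with 9.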

Additional observations from a re-analysis of the deposited data

Results flagged for a closer look

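For 8 of the named genes the response to medium differed between R1 and HEK293T cells by the test of the difference itself, the interaction term of the edgeR fit adjusted over all genes tested. Values are the R1 response minus the HEK293T response on the log2 scale, and they come from 11 libraries, without R1 −Met+Hcy replicate 3, unless 12 are stated. Differences below 0 for genes higher in −Met+Hcy were found for CHAC1 at −2.12 (R1 2.56, HEK293T 4.68, edgeR adjusted p = 0.00208), SLC6A9 at −0.89 (1.10 and 1.99, adjusted p = 0.0293), CEBPG at −1.27 (0.73 and 2.00, adjusted p = 0.0152), HSF2BP at −3.17 (1.35 and 4.53, adjusted p = 0.00394) and KLF10, a transcription factor of the early TGF-beta response, at −1.70 (0.41 and 2.11, adjusted p = 0.00204).

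Histone genes made up another group of these. H1-2 differed by −2.75 with 12 libraries (R1 1.63, HEK293T 4.38, edgeR adjusted p = 0.046) and by −2.84 with 11 (adjusted p = 0.00409). H2AC6, a replication-dependent core histone, differed by −3.57 (1.02 and 4.59, adjusted p = 0.0145).

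A difference above 0 was found for PFKP, which had lower values in −Met+Hcy, at 1.43 (R1 −0.51, HEK293T −1.94, edgeR adjusted p = 0.0251). All of these genes had been named for their R1 values. With 12 libraries 1 of the 8, H1-2, passed, so that the other 7 passed only without R1 −Met+Hcy replicate 3.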

How the results depend on the processing

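With 12 libraries, the 1 gene called higher became 25 with DESeq2, 3 with DESeq2 on the R1 libraries only, 0 with edgeR on those libraries and 4 with the GC and length trend removed, and 0 to 3 with a library left out. It was 0 without any 1 of the R1 +Met libraries and 3 without R1 −Met+Hcy replicate 3. The 0 genes called lower became 3 with DESeq2 and 1 with DESeq2 on the R1 libraries only, and 0 to 1 with a library left out, the 1 being BORCS8-MEF2B without R1 −Met+Hcy replicate 2. With 11 libraries, the 3 called higher became 16 with DESeq2, 9 with DESeq2 on the R1 libraries only, 5 with no filter and 7 with the trend removed, and 2 to 5 with a further library left out (5 without R1 +Met replicate 2). The 0 called lower became 5, 9 and 2 with DESeq2, DESeq2 on the R1 libraries only and the trend removed. The genes lower at an unadjusted p under 0.05 went from 362 to 637 with the trend removed, and from 439 to 826 with 11 libraries. The cause of these moves was not tested. With a library left out, the log2 fold change ranged from −0.14 to 1.10 for TIPRL, −0.04 to 2.26 for RPL36A, −0.01 to 1.46 for RPL38 and −0.26 to 1.45 for RPL26, below 0 only without R1 −Met+Hcy replicate 3. Of the list medians, 6 moved by more than the spread with the trend removed and 7 without replicate 3, and DESeq2 moved 0.

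Same-numbered libraries of the 2 media, each taken as its deviation from the mean of its group, correlated at 0.074, −0.47 and −0.09 over 11641 genes. These deviations also carry the GC trends of the libraries, so they cannot tell whether the replicate numbers pair cultures. With the number as a replicate block, the genes higher at an unadjusted p under 0.05 went from 974 to 615, MAT2A kept its call (log2 fold change 2.08, edgeR adjusted p = 0.0338), and with 11 libraries 2 genes were called, CHAC1 and MAT2A. Low counts limit OSMR, IGFBP3, NUPR1 and MAT1A.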

Other observations

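Some further gene groups also held members with higher values in −Met+Hcy, and none of these members was called by edgeR. Of 21 measured interferon-stimulated genes, 16 had a positive log2 fold change with 12 libraries and 17 with 11, 2 and 4 were higher at an unadjusted p under 0.05, against 5.68% and 4.49% of all genes tested, and the median was 0.11 and 0.30. IFIT3, an antiviral effector, was 1.75, 1.86 and 2.01 CPM in +Met against 3.87, 3.3 and 6.07 CPM in −Met+Hcy, with all libraries above +Met (log2 fold change 1.24 and 0.94, edgeR adjusted p = 0.622 and 0.421). IFIT1 was 21.2, 40.2 and 22.8 against 55.6, 30.6 and 61.7 CPM and overlapped. ANKRD1, a target of YAP and TEAD, had 12, 5 and 18 counts in +Met against 57, 32 and 95 in −Met+Hcy (log2 fold change 2.37 with 12 libraries, DESeq2 adjusted p = 0.0299, and 2.00 with 11), while the 13 genes of its list had a median of −0.03 and 0.01.

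KLF10, an early response gene, was 21.6, 22.2 and 26.3 CPM in +Met against 29.8, 32.2 and 60.3 CPM in −Met+Hcy (log2 fold change 0.81 and 0.41). FAS, a death receptor, was 5.77, 8.08 and 5.01 against 13.3, 7.84 and 16.2 CPM (0.98 and 0.74), with replicate 2 inside the range of +Met. IMPACT, an inhibitor of the eIF2 kinase GCN2, was 43, 52.6 and 49.1 against 61.5, 57.9 and 107 CPM (0.64 and 0.31), with no overlap. TFRC, the transferrin receptor, lay the other way at 183, 217 and 185 against 155, 134 and 154 CPM, again without overlap (−0.40 and −0.43). Autophagy genes, 29 measured, had a median of 0.00 and −0.04, and GABARAPL1, of the ATG8 family, was 14.5, 13.2 and 16 against 9.96, 12.4 and 9.34 CPM (−0.46 and −0.38).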
